A study of Mus musculus with 6 samples.

Results

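The 10 genes described here are Tmem119, Cx3cr1, Siglech, Olfml3, Selplg, Sparc, Cst3, Slco2b1, Crybb1 and Rnase4, a signature of homeostatic microglia. They were taken from the gene table by their symbols, and all 10 were found among 19225 listed genes and among the 6659 genes that were abundant enough to be tested. Microglia-enriched cells were compared between 3 libraries labelled Cnr1+/+ (strain C57BL6/J, genotype wt/wt) and 3 libraries labelled Cnr1-/- (strain Cnr1 tm1Zim, genotype d/d), each from the brain of a single male mouse. The labels give an age of 3 months for every mouse and none had been stressed, so the comparison asks whether the genotypes differ in microglial gene expression at rest. Both groups shared the C57BL/6J background and the same isolation, in which the brain was perfused, freed of cerebellum and myelin, and enriched with magnetic beads for CD11b, a surface protein of myeloid cells. In the mutant a neomycin cassette constitutively disrupts the coding region of Cnr1, the gene of cannabinoid receptor 1, in every cell type rather than in microglia alone.

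Microglia are the resident macrophages of the brain parenchyma. At rest they keep up a characteristic set of transcripts under the influence of TGF-beta, CSF1 receptor signalling and transcription factors such as PU.1, and they lower many of these transcripts when they turn to a disease-associated or inflammatory state. The signature spans surface proteins that sense neurons, lectins, platelets and solutes, and secreted proteins that inhibit proteases, bind matrix or cleave RNA. It therefore serves in many brain studies as a readout of whether microglia have left their resting state.

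To show the regulatory sequence of genes whose relative levels are described below, the 250 bases before the start site are given for 3 of them, from RefSeq on GRCm38.p6, 5′ to 3′ on the strand of the gene. These windows were chosen because they lie outside the annotated gene bodies and because the ratios of Slco2b1 to Olfml3 and of Olfml3 to Rnase4 are among the results. Capitals mark CAGAC or its reverse complement GTCTG, the element that SMAD proteins downstream of TGF-beta are known to bind. The windows lie at chr7:99711341-99711590 (minus strand, Slco2b1), chr3:103738002-103738251 (minus strand, Olfml3) and chr14:51090827-51091076 (plus strand, Rnase4).
Slco2b1: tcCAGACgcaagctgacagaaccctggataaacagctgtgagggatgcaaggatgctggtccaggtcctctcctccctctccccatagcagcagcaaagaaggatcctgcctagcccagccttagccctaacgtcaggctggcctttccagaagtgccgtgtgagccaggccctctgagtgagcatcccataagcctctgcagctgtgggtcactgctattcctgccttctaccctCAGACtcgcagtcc
Olfml3: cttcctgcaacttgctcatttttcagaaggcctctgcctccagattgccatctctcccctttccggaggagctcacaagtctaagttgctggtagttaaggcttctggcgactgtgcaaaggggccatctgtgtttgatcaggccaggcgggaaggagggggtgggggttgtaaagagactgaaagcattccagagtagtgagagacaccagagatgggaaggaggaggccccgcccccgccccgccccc
Rnase4: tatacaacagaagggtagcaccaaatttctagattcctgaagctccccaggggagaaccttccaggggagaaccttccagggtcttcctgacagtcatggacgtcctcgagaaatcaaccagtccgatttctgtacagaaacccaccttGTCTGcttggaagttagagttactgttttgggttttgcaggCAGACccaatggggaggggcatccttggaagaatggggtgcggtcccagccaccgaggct
In these windows Slco2b1 and Rnase4 each held 2 copies of the element and Olfml3 held 0. Slco2b1 has further RefSeq windows, of which chr7:99706843-99707092 held 0 copies and chr7:99695810-99696059 held 1. RefSeq gave 11 windows for 8 of the 10 genes, and Tmem119 and Selplg were not among them. CAGAC was found in 9 of the 11 windows and for 7 of the 8 genes, Olfml3 being the exception, whereas 42.2% of all 32851 windows of this length held it on either strand. GAGGAA, a core recognised by PU.1, or its reverse complement TTCCTC was found in 2 of the 11 windows, for Cst3 and Slco2b1, against 23.3% of all windows. TATAAA or TTTATA was found for Crybb1, in 1 window against 12.4% of all. The 3 elements were searched separately on both strands, so that matches of different elements may overlap, and a match of letters is a description of the window and not a binding site.

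Library sizes between 7708783 and 10723783 reads, which include the TMM scaling factor of the library, were derived from the value of 1 read. The listed genes held 50.1% to 59.1% of the scaled total. The targeted gene went against its labels. Levels are given in cpm, the reads of a gene scaled to the TMM-adjusted size of its library. Cnr1 had a value of 0 in each library labelled Cnr1+/+, a result that up to 3 reads could give (0.299 to 0.389 cpm in these libraries, counting error only). In those labelled Cnr1-/- it stood at 1.41, 1.21 and 1.79 cpm, or 13, 13 and 15 reads. The cassette lies in the coding region and the libraries read 3′ ends, so these reads do not show which allele was present, and every direction below is given by label. The microglial markers Itgam, Csf1r, Aif1 and P2ry12 were all above 0 and together reached 4486 to 5152 cpm in the 6 libraries. Summed neuron markers (8 of 8 listed) lay at 31.7 to 37.4 cpm, endothelial markers (7 of 7 listed, Itm2a at 0 in at least 1 library) at 16.5 to 30.0 cpm and border-associated macrophage markers (9 of 9 listed, Siglec1 at 0 in at least 1 library) at 304 to 431 cpm. Astrocyte markers (7 of 7 listed) lay at 299 to 551 cpm and oligodendrocyte markers (6 of 6 listed) at 420 to 853 cpm. Replicate 2 labelled Cnr1-/- stood apart, with summed neutrophil markers (8 of 9 listed, Elane missing) at 4031 cpm against 263 to 521 cpm in the other 5 libraries, summed erythrocyte markers (5 of 5 listed, Alas2 at 0 in at least 1 library) at 2330 against 136 to 237 cpm, and monocyte markers (6 of 6 listed) at 106 against 27.7 to 33.9 cpm. The 13 mitochondrially encoded protein genes summed to 16390 to 20090 cpm in the libraries labelled Cnr1+/+ and to 20440 to 26100 cpm in those labelled Cnr1-/-, so that these groups did not overlap. The mitochondrial rRNA genes mt-Rnr1 and mt-Rnr2 were not part of this sum. The part of each of these in the results below was not tested, except where values without a library are given. In the rescaling without the mitochondrially encoded protein genes, each library was divided by the total of its other listed genes, in place of TMM scaling. It therefore does not separate the part of these genes from the change of scaling.

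The signature was abundant in every library and differed little between the labels. Together the 10 genes reached 17803, 17327 and 20466 cpm in the libraries labelled Cnr1+/+ and 19135, 20651 and 19949 cpm in those labelled Cnr1-/-. Replicate 3 labelled Cnr1+/+ thus lay within the range of the other label, and replicates 1 and 2 of that label were the lowest of the 6. As a share of all listed genes the sum was 3.55%, 3.21% and 3.77% in the libraries labelled Cnr1+/+ and 3.58%, 3.49% and 3.43% in those labelled Cnr1-/-. None of the 10 genes passed the test between the labels by limma, either at a nominal p below 0.05 or at an adjusted p below 0.1 and more than 1.5-fold change, whereas 6.02% of all genes tested passed the first threshold and 0.0901% the second. Limma voom called 0 of them as well, where 408 of all 6659 genes had a nominal p below 0.05. In bulk RNA, fewer microglia and less RNA per cell cannot be told apart.

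**Figure D1:**
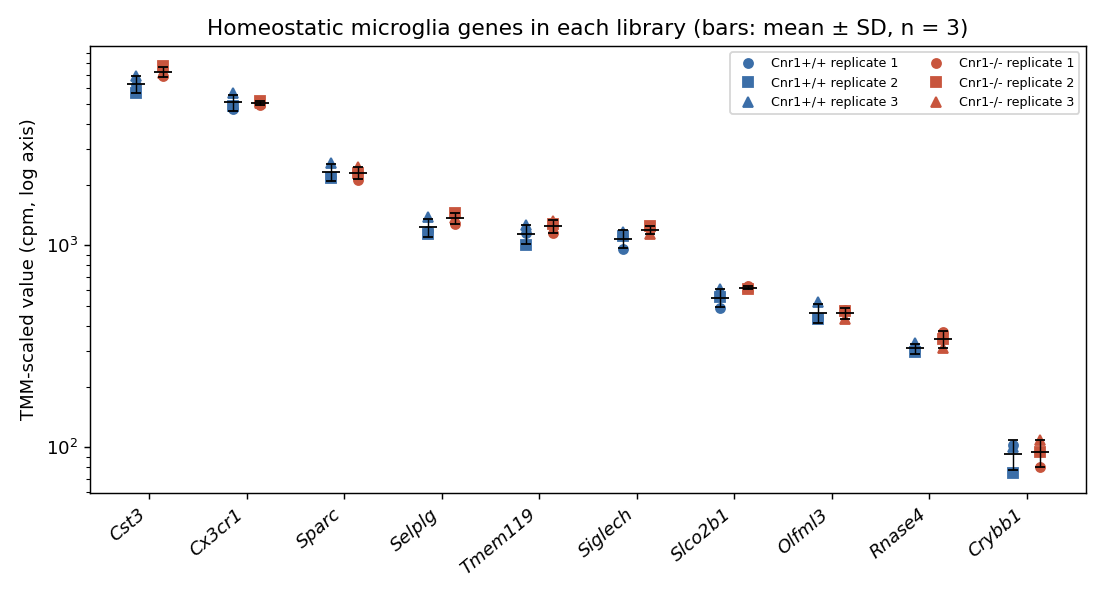
Level of each gene (cpm, log axis) in each of the 6 libraries, with the mean ± SD of 3 libraries per label. The genes span from 75.0 cpm for Crybb1 to 7701 cpm for Cst3, and the labels overlap for every gene except Slco2b1.

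The libraries read a single position near the 3′ end of each transcript, so a level does not grow with transcript length, and levels of different genes are compared on this scale. The order of mean levels was Cst3, Cx3cr1, Sparc, Selplg, Tmem119, Siglech, Slco2b1, Olfml3, Rnase4 and Crybb1. The mean level of Cst3 was 72.1 times that of Crybb1, and Cst3 and Cx3cr1 together made up 61.0% to 62.4% of the summed level of the signature in each library. Most neighbours in this order kept their places in 6 of 6 libraries. The exception was Tmem119 and Siglech, which stood in this order in 4 of 6. Over all libraries the ranges of Selplg and Tmem119, of Tmem119 and Siglech and of Slco2b1 and Olfml3 overlapped. Within each library Selplg still stood above Tmem119 (1.02 to 1.14 times) and Slco2b1 above Olfml3 (1.13 to 1.44 times). Cst3 and Cx3cr1 were barely separated, with the lowest Cst3 level at 5670 cpm and the highest Cx3cr1 level at 5648 cpm. The gene with the fewest reads was Crybb1, with 739 to 1018 per library and a counting error of 3.68% at the lowest. The counting error was at most 2.07% for the other 9 genes.

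Ranks of abundance do not depend on the scaling of a library. Among the 17417 to 18064 genes above 0 in a library, 8 of the 10 genes stood among the 100 most abundant in every library and 9 among the 150 most abundant. Cst3 ranked 4, 5 and 4 in the libraries labelled Cnr1+/+ and 4, 4 and 4 in those labelled Cnr1-/-. Cx3cr1 ranked 7, 6 and 5 against 6, 6 and 7. Selplg ranked 31, 32 and 31 against 32, 31 and 32, and its place was therefore nearly the same everywhere. Tmem119 ranked 34, 36 and 32 against 34, 35 and 33. Siglech ranked 35, 33 and 36 against 33, 36 and 35, so that both genes stayed within a few places of each other. Slco2b1 ranked 69, 59 and 61 against 52, 67 and 63, so the labels overlapped. Olfml3 ranked 82, 91 and 76 against 79, 87 and 95. Rnase4 ranked 129, 140 and 133 against 104, 138 and 147. Crybb1, far below the others, ranked 593, 981 and 713 against 919, 845 and 639.

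**Figure D2:**
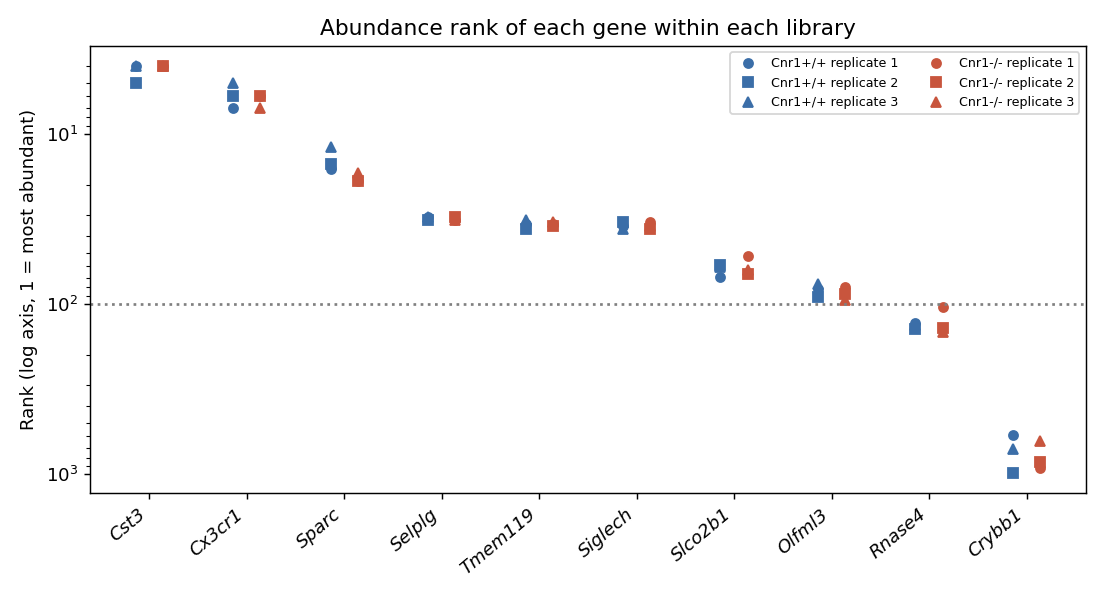
Rank of each gene within each library (log axis, 1 is the most abundant, dotted line at rank 100). The ranks of the labels overlap for every gene except Sparc.

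Sparc was the one gene whose ranks did not overlap, at 16, 15 and 12 in the libraries labelled Cnr1+/+ against 19, 19 and 17 in those labelled Cnr1-/-. Ranks did not overlap for 10.5% of all genes tested, so 1 of 10 is near this background. Of the genes above Sparc, 5, 4 and 1 were mitochondrially encoded protein genes in the libraries labelled Cnr1+/+ and 5, 5 and 5 in those labelled Cnr1-/-. The other genes above it numbered 10, 10 and 10 against 13, 13 and 11, with the mitochondrial rRNA genes mt-Rnr1 and mt-Rnr2 among them in every library. The additional ones included Ctss and Serinc3 in replicates 1 and 2 and Gm28437 in replicate 3, Serinc3 and Gm28437 being named after their values were seen. The level of Sparc itself was 2187, 2153 and 2556 cpm in the libraries labelled Cnr1+/+ and 2115, 2291 and 2436 cpm in those labelled Cnr1-/-, so the levels overlapped. Sparc encodes a secreted matricellular glycoprotein that binds collagen. Its log2 fold change was -0.01 (95% interval -0.27 to 0.25, adjusted p = 0.995, limma). With quantile normalisation it was -0.21, past the nominal threshold of 0.05 (adjusted p = 0.893, limma). Sparc is also made by other glia, and its highest level was in replicate 3 labelled Cnr1+/+, where the astrocyte markers had their lowest sum. Sparcl1, a paralogue of Sparc that astrocytes express, stood at 273, 256 and 149 cpm against 172, 246 and 319 cpm, and was also lowest in that library.

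Of the surface receptors, Cx3cr1 encodes the receptor of the neuronal chemokine fractalkine. Cx3cr1 stood at 4743, 4897 and 5648 cpm in the libraries labelled Cnr1+/+ and at 4940, 5178 and 5046 cpm in those labelled Cnr1-/-. The 3 values of the second group lay inside the range of the first, and the SD was 484 cpm in the first and 119 cpm in the second (n = 3 each). The log2 fold change was -0.01 (95% interval -0.30 to 0.28, adjusted p = 0.995, limma). Cx3cl1, the fractalkine gene, was listed at 0.835 to 2.61 cpm in the 6 libraries and was below the minimum for the test.

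Tmem119 encodes a membrane protein widely used to tell microglia from other macrophages. Its level was 1153, 1010 and 1255 cpm in the libraries labelled Cnr1+/+ and 1147, 1269 and 1325 cpm in those labelled Cnr1-/-. Replicate 1 labelled Cnr1-/- lay among the libraries of the other label, while the other two of its group were the highest of the 6. The log2 fold change was 0.13 (95% interval -0.12 to 0.38, adjusted p = 0.910, limma).

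Siglech encodes a sialic acid-binding lectin of microglia and plasmacytoid dendritic cells. It stood at 956, 1110 and 1168 cpm against 1199, 1248 and 1143 cpm. The lowest value of the libraries labelled Cnr1-/- fell below the highest of those labelled Cnr1+/+, so the groups overlapped by that pair. Its log2 fold change was 0.15 (95% interval -0.09 to 0.40, adjusted p = 0.900, limma). Summed markers of plasmacytoid dendritic cells (3 of 5 listed, Ly6d at 0 in at least 1 library) lay at 13.2 to 24.2 cpm. Tyrobp, the adaptor through which Siglech signals, stood at 347, 336 and 437 cpm against 356, 414 and 351 cpm, with a log2 fold change of 0.01.

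Selplg encodes PSGL-1, the ligand of P-selectin. Its level was 1180, 1134 and 1374 cpm in the libraries labelled Cnr1+/+ and 1272, 1443 and 1371 cpm in those labelled Cnr1-/-. Replicate 3 labelled Cnr1+/+ lay above 2 libraries of the other label. The log2 fold change was 0.15 (95% interval -0.10 to 0.40, adjusted p = 0.900, limma). Selplg is also expressed by neutrophils and monocytes, and its highest level was in replicate 2 labelled Cnr1-/-, where the markers of those cells were highest. Without that library the log2 fold change of Selplg was 0.11. Selp, the gene of P-selectin, was not among the listed genes.

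Slco2b1 encodes a transporter of organic anions. It stood at 492, 553 and 606 cpm in the libraries labelled Cnr1+/+ and at 627, 607 and 620 cpm in those labelled Cnr1-/-. It was the one gene whose groups did not overlap, although the gap between 606 and 607 cpm was smaller than the counting error of 1.62% and far smaller than the SD of 56.8 cpm in the libraries labelled Cnr1+/+ (n = 3). Groups did not overlap, with higher values in the libraries labelled Cnr1-/-, for 8.85% of all genes tested, and with lower values for 2.13%, so 1 and 0 of 10 are near the background. The log2 fold change of Slco2b1 was 0.17 (SE 0.116, 95% interval -0.07 to 0.41, adjusted p = 0.887, limma). The two-sided exact permutation p of 0.1, the smallest that 3 libraries against 3 can give, follows from the lack of overlap. In the annotation Slco2b1 overlaps the antisense genes Gm15635 and Gm34280, and whether the authors counted by strand is not given in the sources used here.

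Of the secreted proteins, Cst3 encodes cystatin C, an inhibitor of cysteine cathepsins. Its level was 6251, 5670 and 6909 cpm in the libraries labelled Cnr1+/+ and 6900, 7701 and 7160 cpm in those labelled Cnr1-/-. A single pair of values, 6909 and 6900 cpm, kept the groups from being separate, and these 2 values differed by less than the counting error of 0.456%. Cst3 had the largest log2 fold change of the 10 genes, 0.21 (SE 0.148, 95% interval -0.09 to 0.52, adjusted p = 0.900, limma). Cst3 is also made by astrocytes, whose summed markers were 429, 474 and 299 cpm in the libraries labelled Cnr1+/+ and 390, 480 and 551 cpm in those labelled Cnr1-/-. Of the cathepsins it inhibits, Ctsb (log2 fold change 0.02), Ctsl (0.01) and Ctss (0.17) did not pass the test. Ctss was the most abundant of them, at 1905, 2147 and 2449 cpm against 2361, 2599 and 2324 cpm.

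Olfml3 encodes a secreted olfactomedin-like protein. Its level was 436, 431 and 521 cpm in the libraries labelled Cnr1+/+ and 481, 474 and 430 cpm in those labelled Cnr1-/-. The highest of the 6 values carried the label Cnr1+/+ and the lowest the label Cnr1-/-, and the log2 fold change was 0.00 (95% interval -0.24 to 0.24, adjusted p = 1.0, limma). Rnase4 encodes a secreted ribonuclease. It stood at 302, 295 and 329 cpm against 374, 345 and 309 cpm. Replicate 3 labelled Cnr1-/- lay within the other group, and the log2 fold change was 0.15 (95% interval -0.09 to 0.39, adjusted p = 0.900, limma).

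Rnase4 shares its locus with Ang, which encodes the ribonuclease angiogenin. On GRCm38 the annotation places Rnase4 at chr14:51091077-51106151 and Ang at chr14:51091150-51102009, both on the plus strand, and RefSeq gives the same window before the start for both, the one printed above. Their 3′ ends differ, so the libraries could tell them apart. Ang stood at 33.9, 40.9 and 53.1 cpm in the libraries labelled Cnr1+/+ and at 48.7, 57.1 and 56.2 cpm in those labelled Cnr1-/-, with overlapping groups. Its log2 fold change was 0.36 (adjusted p = 0.809, limma), past a nominal p under 0.05, and this call was lost under median centring (0.29), quantile normalisation (0.27), rescaling without mitochondrially encoded genes (0.26) and a fit without trend (0.36, the same fold change). It was also lost without replicates 1 or 2 labelled Cnr1+/+ or without replicates 2 or 3 labelled Cnr1-/-, with log2 fold changes between 0.21 and 0.34. As a percentage of Rnase4, Ang was 11.2%, 13.9% and 16.1% in the libraries labelled Cnr1+/+. It reached 16.5% and 18.2% in replicates 2 and 3 labelled Cnr1-/-, while replicate 1 of that label lay inside the range of the first group. Rnh1, the inhibitor of these ribonucleases, lay at 37.3 to 45.3 cpm with a log2 fold change of -0.01.

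Crybb1 encodes a beta-crystallin, a protein family best known from the lens. Its level was 103, 75.0 and 101 cpm in the libraries labelled Cnr1+/+ and 80.0, 94.9 and 109 cpm in those labelled Cnr1-/-. It varied most of the 10 genes, with a highest value 1.46 times the lowest and a coefficient of variation of 14.4% over the 6 libraries, against 1.19 times and 6.23% for Cx3cr1. The log2 fold change was 0.03 (95% interval -0.27 to 0.34, adjusted p = 0.986, limma). Its neighbour Cryba4, 3.3 kb away on the opposite strand, lay at 13.5 to 18.8 cpm with a log2 fold change of 0.22 (adjusted p = 0.916, limma).

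**Figure D3:**
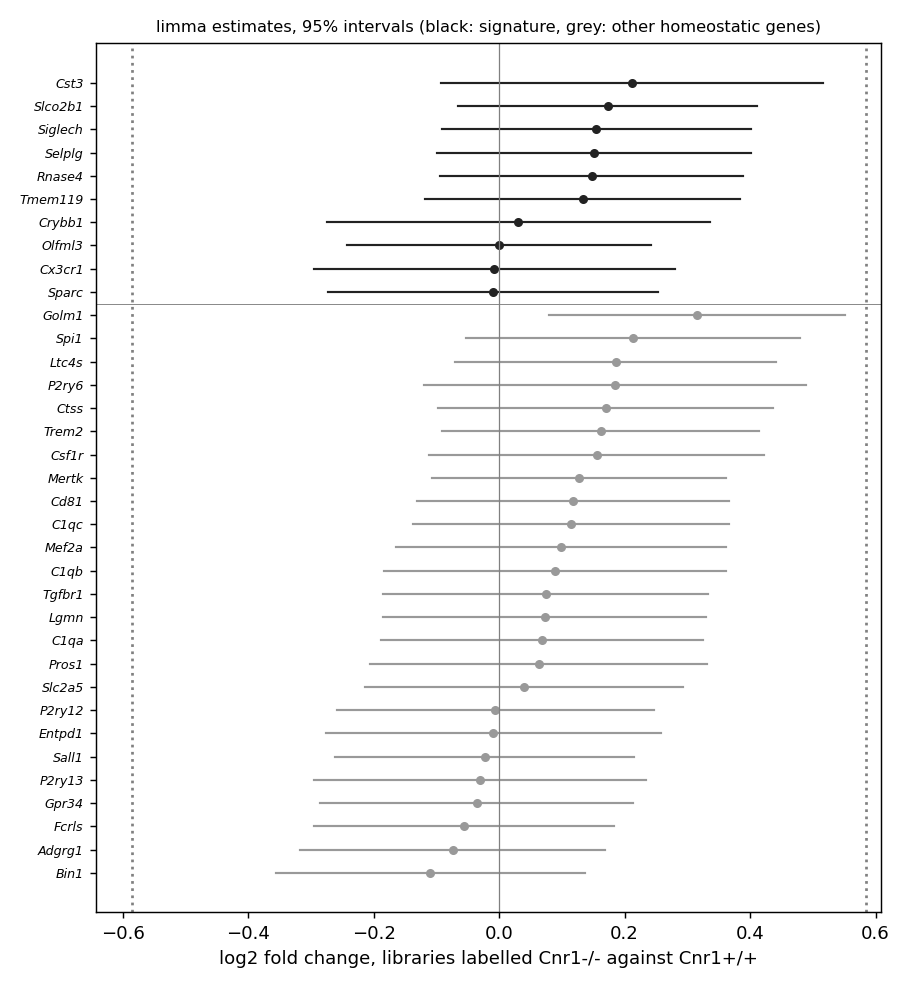
Log2 fold change with 95% interval (limma) of the 10 genes in black and of 25 of the 28 other homeostatic genes in grey, higher in libraries labelled Cnr1-/- to the right, dotted lines at 1.5-fold. All intervals of the 10 genes include 0 and end inside the dotted lines.

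Across the 10 genes, 8 log2 fold changes were above 0 and 2 below, with a median of 0.14. Over all genes tested the median was 0.08 and 68.4% of genes were above 0, so the direction of the signature was that of most genes. Nominal calls were also uneven, with 5.09% of all genes upwards and 0.931% downwards in the Cnr1-/- label. After rescaling without the mitochondrially encoded protein genes, which also replaced TMM scaling, the median of the 10 genes was 0.04 and that of all genes -0.02. With quantile normalisation they were -0.01 and -0.0014. The signs of Olfml3 and Crybb1 turned under both of these scalings and under median centring, and those of Tmem119 and Selplg under quantile normalisation. In the main fit of all 6 libraries, the 95% intervals of the 10 genes excluded a 1.5-fold difference in either direction. The highest upper bound was 1.43-fold for Cst3 and the lowest lower bound 0.815-fold for Cx3cr1. Whether this holds with a library left out is not given. The genes were measured with less spread than most, with a median SD within groups of 0.12 on the log2 scale against 0.22 over all genes tested. Without replicate 2 labelled Cnr1-/-, the library with neutrophil and erythrocyte transcripts, 0 of the 10 genes passed a nominal p under 0.05, where 3.81% of all genes did. Without replicate 3 labelled Cnr1+/+, a fit in which 9.07% of all genes passed, 3 did, namely Cst3 (log2 fold change 0.28, adjusted p = 0.518, limma), Slco2b1 (0.24, adjusted p = 0.528) and Selplg (0.23, adjusted p = 0.547).

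Several libraries held high or low values of many of these genes at once. In replicate 3 labelled Cnr1+/+ all 10 genes were above their own mean over the 6 libraries, in replicate 2 of that label none was, and in replicate 1 only Crybb1 was. Among the libraries labelled Cnr1-/- 5, 10 and 7 genes were above their mean. The lowest value of a gene was in a library labelled Cnr1+/+ for 8 of the 10 genes and the highest in one labelled Cnr1-/- for 7 of them. Replicate 2 labelled Cnr1+/+ held the lowest value of 5 genes, and Cx3cr1, Sparc and Olfml3 had their highest value in replicate 3 of the same label.

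**Figure D4:**
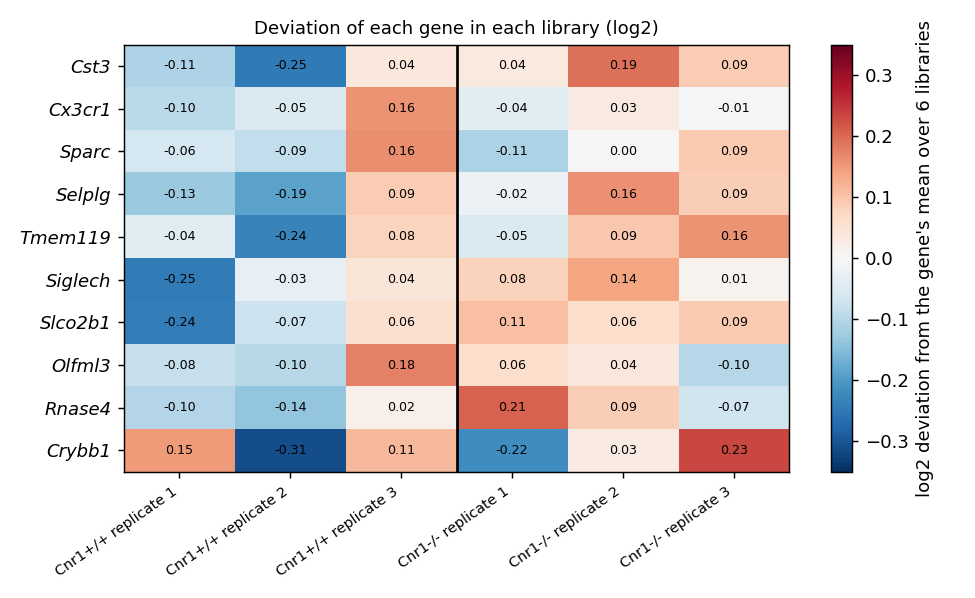
Log2 deviation of each gene (rows) from its mean over the 6 libraries, for each library (columns, vertical line between the labels). Replicate 3 labelled Cnr1+/+ and replicate 2 labelled Cnr1-/- are at or above 0 for all 10 genes, and Crybb1 ranges from -0.31 to 0.23.

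Ratios between genes of the signature remove such shifts, since the scaling of a library cancels. Of the 45 pairs among the 10 genes, the ratios of 8 (17.8%) did not overlap between the labels, whereas 10.8% of all pairs of tested genes did not overlap. These pairs share genes and are not independent of each other, and whether 8 of 45 exceeds the background was not tested. Groups of 3 that do not overlap have by construction a two-sided exact permutation p of 0.1, the smallest possible, so this test adds nothing for the 8 pairs. The ratio of Cst3 to Cx3cr1 was 1.32, 1.16 and 1.22 in the libraries labelled Cnr1+/+ and 1.40, 1.49 and 1.42 in those labelled Cnr1-/-, a log2 difference of 0.22. Cystatin C transcripts were thus more abundant relative to those of the fractalkine receptor in each library labelled Cnr1-/- than in any of the other label. The ratio of Cst3 to Sparc was 2.86, 2.63 and 2.70 against 3.26, 3.36 and 2.94, again a log2 difference of 0.22.

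Cx3cr1 was lower against Selplg too, at 4.02, 4.32 and 4.11 against 3.88, 3.59 and 3.68. Against Slco2b1 it was 9.64, 8.86 and 9.33 in the libraries labelled Cnr1+/+ and 7.88, 8.53 and 8.13 in those labelled Cnr1-/-. Cx3cr1 and Sparc, the second and the third of the signature in level, each took part in 3 of the 8 pairs, and in all of these they were lower relative to their partner in the libraries labelled Cnr1-/-. Their own log2 fold changes were both -0.01, so these ratios restate the fold changes of their partners, 0.13 to 0.21. Sparc was 1.85, 1.90 and 1.86 times Selplg against 1.66, 1.59 and 1.78 times. It was 1.90, 2.13 and 2.04 times Tmem119 against 1.84, 1.81 and 1.84 times. The log2 differences of these 4 ratios lay between -0.18 and -0.14.

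Of the last 2 pairs, whose promoter windows are printed above, Slco2b1 to Olfml3 was 1.13, 1.28 and 1.16 against 1.30, 1.28 and 1.44. The nearest values of the groups, both 1.28, differed only beyond the digits given, by less than the counting error. Olfml3 to Rnase4 was 1.44, 1.46 and 1.58 against 1.29, 1.37 and 1.39, a log2 difference of -0.15. Siglech and Crybb1 took part in none of the 8 pairs.

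**Figure D5:**
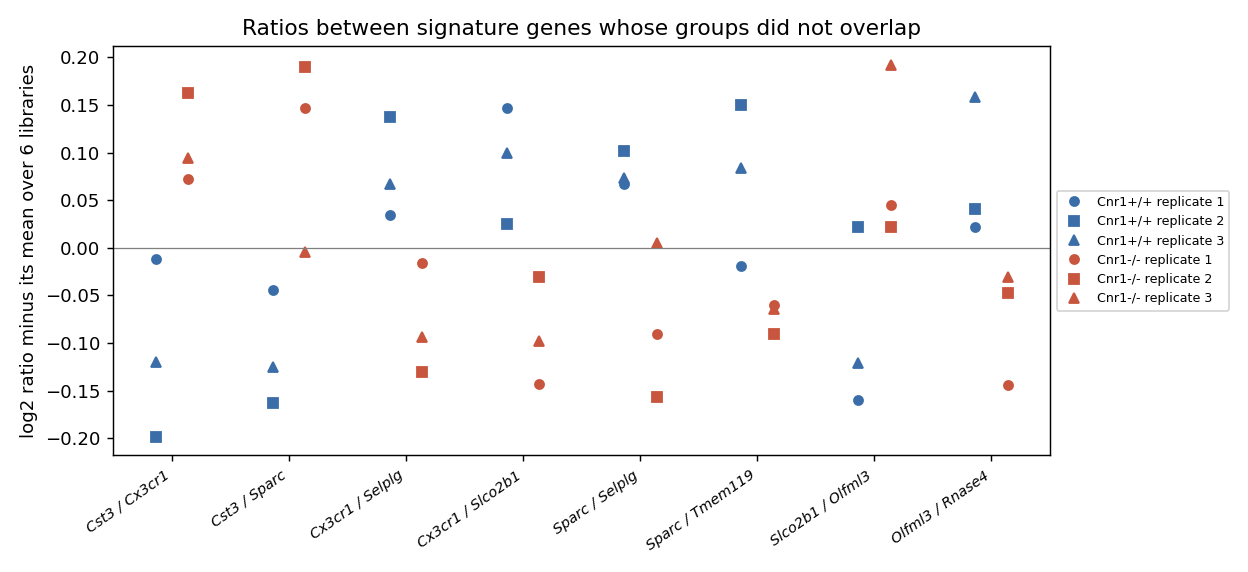
Log2 ratio of the 8 gene pairs whose labels did not overlap, minus its mean over the 6 libraries, with 1 point per library. The libraries labelled Cnr1-/- are higher for Cst3 to Cx3cr1, Cst3 to Sparc and Slco2b1 to Olfml3 and lower for the other 5 pairs.

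By position the 10 genes lay on 7 chromosomes, with 3 on chromosome 5 within 1.58 Mb. On GRCm38 Cst3 lies at chr2:148871722-148875692, Olfml3 at chr3:103722222-103738001, Slco2b1 at chr7:99657804-99711340 and Sparc at chr11:55394500-55423183, all on the minus strand. Crybb1 lies at chr5:112255815-112269585 and Siglech at chr7:55768178-55778925 on the plus strand. Tmem119 (chr5:113793729-113800516) and Selplg (chr5:113818536-113832644) are neighbours on the minus strand, 18.0 kb apart, with the pseudogene Gm19931 between them. Tmem119 stood at 0.977, 0.891 and 0.913 times Selplg in the libraries labelled Cnr1+/+ and at 0.902, 0.879 and 0.967 times in those labelled Cnr1-/-, and the groups overlapped. The highest ratio was 1.11 times the lowest, the second smallest spread of the 45 pairs after that of Cst3 and Selplg, which lie on different chromosomes (1.08 times). Cx3cr1 (chr9:119901616-120069879, minus strand) has a long annotated transcript that runs over Wdr48, Gorasp1, Ttc21a, Csrnp1 and Xirp1. These 5 genes were at most at 25.0 cpm in any library, far below Cx3cr1.

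Other genes of the homeostatic programme were examined in the same way. Of 28 such genes, all tested, 19 log2 fold changes were above 0 and 9 below, with a median of 0.08, equal at this precision to that of all genes tested. The most abundant were Csf1r, the receptor on which microglia depend for survival, at 2750 to 3441 cpm, and Ctss, a lysosomal protease, at 1905 to 2599 cpm, with log2 fold changes of 0.16 and 0.17 that did not pass the test. At a nominal p under 0.05, 1 of the 28 passed upwards and 0 downwards, beside 5.09% and 0.931% of all genes, so the count is near the background. This gene was Golm1, a Golgi membrane protein, at 277, 277 and 316 cpm against 350, 367 and 364 cpm. The groups did not overlap, and the log2 fold change was 0.32 (95% interval 0.08 to 0.55, adjusted p = 0.702, limma). The nominal call of Golm1 held in 15 of 16 alternative settings, with adjusted p of 0.372 or more, and was lost in the fit without trend, where the fold change was the same. Groups did not overlap for 3 of the 28 with higher and 1 with lower values in the Cnr1-/- label, beside 8.85% and 2.13% of all genes, and Csf1r and Golm1 were among the former. Without replicate 3 labelled Cnr1+/+ 7 of the 28 genes were called, where 9.07% of all genes were.

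Of the TGF-beta genes, Tgfb1 encodes the ligand, Tgfbr1 and Tgfbr2 its receptor chains and Smad3 a transcription factor they activate. Tgfb1 lay at 25.7 to 41.6 cpm, Tgfbr1 at 291 to 403 cpm and Tgfbr2 at 110 to 141 cpm, and none of the 3 passed the test. Smad3 stood at 50.3, 43.2 and 56.7 cpm in the libraries labelled Cnr1+/+ and at 39.2, 47.6 and 29.2 cpm in those labelled Cnr1-/-, with overlapping groups. Its log2 fold change was -0.39 (adjusted p = 0.809, limma). Its nominal call held under the other scalings, with log2 fold changes of -0.47 (median centring), -0.48 (quantile) and -0.49 (without the mitochondrially encoded genes). It was lost in a fit without trend (-0.39, the same fold change), without replicate 1 labelled Cnr1+/+ (-0.38) or Cnr1-/- (-0.42), and without replicate 3 labelled Cnr1+/+ (-0.30) or Cnr1-/-. The log2 fold change ranged from -0.56 without replicate 2 labelled Cnr1-/- to -0.20 without replicate 3 of that label. Among all 12 tested partner genes of the signature, 1 was higher (Ang) and 1 lower (Smad3) at a nominal p under 0.05, beside 5.09% and 0.931% of all genes.

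Genes that microglia raise in disease-associated states covered a wide range of levels. Of 18 such genes 12 were tested, and the other 6 lay between 0.758 and 15.0 cpm. The most abundant were Ctsd, a lysosomal protease, at 2795 to 3683 cpm, B2m, the light chain of MHC class I, at 889 to 1156 cpm, and Fth1, the ferritin heavy chain, at 423 to 612 cpm, with log2 fold changes of 0.11, 0.09 and 0.14 that did not pass the test. The median log2 fold change of the 12 was -0.01, with 6 above 0 and 6 below. At a nominal p under 0.05, 1 of the 12 passed upwards and 1 downwards, beside 5.09% and 0.931% of all genes. Ccl6, a chemokine of myeloid cells, stood at 53.2, 55.3 and 60.8 cpm against 70.9, 85.0 and 73.7 cpm, without overlap (log2 fold change 0.44, adjusted p = 0.610, limma). Its highest value was in replicate 2 labelled Cnr1-/-, and without that library the log2 fold change was 0.36 (adjusted p = 0.999, limma). The nominal call held in all 16 alternative settings. Axl, a receptor tyrosine kinase that binds dying cells through bridging proteins, stood at 23.7, 10.9 and 12.9 cpm against 6.28, 8.49 and 12.8 cpm, with overlapping groups (log2 fold change -0.76, adjusted p = 0.792, limma). The call was lost without replicate 1 labelled Cnr1+/+ (-0.43) or without replicate 1 labelled Cnr1-/- (-0.52), so it rested on the highest and the lowest of the 6 values. Gpnmb, a membrane glycoprotein of phagocytes, was below the minimum for the test and is named after its values were seen. It stood at 10.4, 10.5 and 9.36 cpm in the libraries labelled Cnr1+/+ and at 4.55, 2.24 and 6.32 cpm in those labelled Cnr1-/-, without overlap. In the fit without a filter, in which 5.17% of all genes and 4 of the 18 activation genes passed the nominal threshold, its log2 fold change was -1.30 (adjusted p = 0.358, limma). Of the other untested activation genes, Itgax (-0.58) and Spp1 (-1.03) also did not overlap and were lower, while Cst7 (0.76) was higher with overlapping groups. The share of genes this low whose groups do not overlap was not tested.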

How the data were processed

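Values per gene for 3 libraries labelled Cnr1+/+ and 3 labelled Cnr1-/- were analysed, with groups taken from the sample labels, 1 library per mouse, so that p-values measure the spread between mice. The authors sequenced transcript 3′ ends, aligned the reads to mm10 with STAR, quantified them per gene in Partek by expectation-maximisation and applied TMM scaling. The deposited values are therefore CPM (cpm), not read counts. 0 columns of values were left unmatched.

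Genes averaging 10 cpm or more were fitted on log2(cpm + 0.1) with limma (version 3.58.1, R 4.3.3; linear model of genotype label, moderated variance with trend), and p-values were adjusted over all genes tested (Benjamini-Hochberg). Fold changes are on this log2 scale, which understates changes of low genes. Values of 85.4% to 87.8% of low entries were whole reads (tolerance 0.05 reads), so a test for counts was not the main test, and limma voom on values turned into reads was run as an alternative. Exact permutation tests had 10 splits. The steps were tested on simulated data. Ranks, ratios and figures were made in Python 3.11.15 with matplotlib 3.10.9. Named are the 10 genes, their partner genes, and from each list the genes with a nominal p under 0.05 and the 3 most abundant, except that some genes are not reported here. The genes and lists were chosen with earlier results of these data known. Alternatives were other pseudocounts, filters, scalings and fits, a replicate block, and each library left out. Rescaling without the mitochondrially encoded protein genes used the total of the other listed genes in place of TMM scaling. Coordinates are from GENCODE vM21 (GRCm38), whose starts equal those of the gene table for all 10 genes.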

Additional observations from a re-analysis of the deposited data

How the results depend on the processing

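Over 16 alternative settings the 10 genes gave 160 log2 fold changes, of which 138 kept their sign and their side of a nominal p under 0.05, 4 passed it, and 18 changed sign. No adjusted p fell below 0.518 and the largest log2 fold change was 0.28 in size. The sign turned with quantile normalisation for Tmem119 (-0.0010), Selplg (-0.0194), Olfml3 (-0.0719) and Crybb1 (-0.0610), with median centring for Olfml3 (-0.0753) and Crybb1 (-0.0450), and with rescaling without mitochondrially encoded genes for Olfml3 (-0.100) and Crybb1 (-0.0700). Leaving out single libraries gave ranges of -0.0574 to 0.0686 for Cx3cr1, -0.0478 to 0.0889 for Olfml3, -0.0583 to 0.0693 for Sparc and -0.117 to 0.146 for Crybb1. The ranges were 0.0494 to 0.206 for Tmem119, 0.0709 to 0.215 for Siglech and 0.0954 to 0.234 for Selplg. They were 0.141 to 0.284 for Cst3, 0.0952 to 0.245 for Slco2b1 and 0.0821 to 0.220 for Rnase4. The number of the 10 genes with a nominal p under 0.05, 0 as reported, was 1 with quantile normalisation (Sparc) and 0 to 3 when single libraries were left out. Their median was -0.0102 with quantile normalisation and 0.0401 with rescaling, and 0.07 to 0.20 without single libraries. The log2 ratio of the summed level, 0.10, was 0.0033 with rescaling and 0.06 to 0.18 without single libraries. The other homeostatic genes called, 1 as reported, numbered 3 with quantile normalisation, 3 with rescaling, 0 without trend, 2 with limma voom and 1 to 7 without single libraries. The activation genes called, 2 as reported, numbered 4 without a filter, 1 at a minimum mean of 20 cpm, 5 with quantile normalisation, 4 with rescaling and 1 to 3 without single libraries. With quantile normalisation and with rescaling, all of those called except Ccl6 were lower in the Cnr1-/- label. Over all genes the median log2 fold change went from 0.08 to 0.01 with centring, -0.0014 with quantile normalisation and -0.02 with rescaling. Of all genes, 401 of 6659 had a nominal p under 0.05, 993 of 19225 without a filter and 263 of 4126 at a minimum mean of 20 cpm. They numbered 360 of 6659 with quantile normalisation, 345 of 6650 with rescaling, 391 of 6659 without trend and 408 of 6659 with limma voom. Without single libraries they ranged from 251 of 6583 without replicate 2 labelled Cnr1-/- to 600 of 6614 without replicate 3 labelled Cnr1+/+. An adjusted p under 0.1 with more than 1.5-fold change was reached by 6 genes. It was reached by 0 with median centring, quantile normalisation, rescaling or no trend, and by 1 to 24 without single libraries. The cause of these shifts was not tested. Same-numbered libraries did not deviate together (r = -0.06, -0.03 and -0.03). With 3 libraries per label this cannot show whether the numbers mark pairs. With a replicate block 421 genes had a nominal p under 0.05, 0 of the 10 genes did, and the log2 fold change of Cst3 was 0.21. It was 0.14 with median centring, 0.09 with quantile normalisation and 0.11 with rescaling. With 3 libraries per label the 95% intervals of the 10 genes had a median width of 0.50 on the log2 scale, which limits how small a difference could be seen.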
